A study of Rattus norvegicus with 12 samples.

Results

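The transcription factors Tbr1, Emx1, Fezf2, Lhx2, Neurod6, Neurod2, Bhlhe22 and Cux2 build and mark the excitatory neurons of the cerebral cortex, and their RNA was followed here in rat brain after stroke. They were chosen by gene symbol, 8 of 37209 symbols in the deposited count table. All 8 passed the filter on low counts that left 17008 symbols for testing. Brain was taken at postnatal day 21 from rats of the Sprague Dawley strain, and total RNA was sequenced in 12 libraries, 3 in each of 4 groups. The groups were middle cerebral artery occlusion (MCAO, which blocks the artery that feeds the lateral cortex and striatum), its sham group (sham LN), pontine infarction (PI, a stroke of the pons in the brainstem) and its sham group (sham PN). The labels give the tissue of all 12 libraries as brain, and name no region, no side and no time after the stroke. They speak of 3 rats for each kind of stroke, say nothing of the sham animals, and the p-values below measure the spread between libraries. Sham LN is set beside MCAO and sham PN beside PI from the first letter of the sample codes. One MCAO column carries a code that no sample title has; it is called the unnumbered MCAO library. Library totals ran between 19805815 and 40400676 counts.

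The cortex grows from the pallium, the dorsal part of the embryonic telencephalon, and its glutamatergic neurons are specified by a cascade of transcription factors that acts in dividing progenitors first and in young neurons later. Several of these factors stay on in the mature cortex and mark its layers: Tbr1 and Fezf2 the deep layers, Cux2 the upper ones. Pons and medulla arise from the hindbrain, where Hox, Engrailed and Phox2 genes take the place of the pallial factors. Some members are also used outside the cortex, such as Neurod2 in the granule cells of the cerebellum.

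The members belong to different families of DNA-binding proteins. Tbr1 is a T-box factor of corticothalamic neurons. Emx1 and Lhx2 are homeodomain factors of cortical progenitors, the second with LIM domains that bind Ldb cofactors. Fezf2 is a zinc finger factor that specifies neurons projecting to brainstem and spinal cord. Neurod6, Neurod2 and Bhlhe22 are basic helix-loop-helix factors, the first 2 activators of pyramidal neuron differentiation and the last a repressor. Cux2 is a cut homeodomain factor of upper-layer neurons.

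Promoter sequence was at hand for 7 of the 8 members, from RefSeq on the assembly GRCr8, with 250 bases before and 50 after the annotated start. Those of Neurod6 and Neurod2 are printed because both RNAs were far below their shams in the same pair of pontine infarction libraries, and that of Tbr1 because its RNA was nearly confined to the MCAO and sham LN libraries. Capitals mark CAGATG, the E-box form that NeuroD proteins favour, in the first 2 sequences, and TAATTA, the core bound by many homeodomain proteins, in the last. The windows are chr4:86180106-86180405 on the minus strand for Neurod6, chr10:83824228-83824527 on the minus strand for Neurod2 and chr3:66759553-66759852 on the plus strand for Tbr1, each written 5′ to 3′ in the direction of the gene.
Neurod6: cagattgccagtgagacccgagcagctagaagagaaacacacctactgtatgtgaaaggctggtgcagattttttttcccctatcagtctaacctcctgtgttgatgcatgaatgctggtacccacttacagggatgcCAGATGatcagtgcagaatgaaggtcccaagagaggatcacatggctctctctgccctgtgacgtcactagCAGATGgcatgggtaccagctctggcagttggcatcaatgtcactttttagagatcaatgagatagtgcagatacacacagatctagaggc
Neurod2: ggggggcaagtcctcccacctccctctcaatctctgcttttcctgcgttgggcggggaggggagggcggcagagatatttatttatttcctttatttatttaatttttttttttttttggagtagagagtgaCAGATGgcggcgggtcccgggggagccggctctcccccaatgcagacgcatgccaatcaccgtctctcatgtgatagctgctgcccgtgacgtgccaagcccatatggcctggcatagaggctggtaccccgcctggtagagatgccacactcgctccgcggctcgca
Tbr1: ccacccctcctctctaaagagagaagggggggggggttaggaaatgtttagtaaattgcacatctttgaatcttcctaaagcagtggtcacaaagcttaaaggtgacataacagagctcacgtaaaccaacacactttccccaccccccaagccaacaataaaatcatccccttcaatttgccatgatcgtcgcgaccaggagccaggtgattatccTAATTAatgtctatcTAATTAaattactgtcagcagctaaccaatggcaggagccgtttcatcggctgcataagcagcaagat

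CAGATG, searched on both strands, began at -112 and -41 from the start in Neurod6 and at -118 in Neurod2. It was in none of the windows of the other 5 members with a sequence, and in 16.6% of 33469 rat promoters of the same length. It is 1 form of the general E-box CANNTG, which 72.1% of promoters held. TAATTA, the same on both strands, began at -33 and -18 in Tbr1 and was in 5.36% of promoters. No other member's window held it, including those of Emx1 and Fezf2, whose RNA was likewise nearly confined to MCAO and sham LN. GGTGTGA, the T-box core, was in 3.83% of promoters and in none of the 7 windows. These matches describe the letters of the windows and no binding was measured.

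Levels are given as normalised counts, the counts scaled to library size (CPM) by TMM scaling. Gene lengths were not at hand, so levels are compared between libraries and not between genes. Tbr1 was at 16.4, 78.4 and 50.02 CPM in MCAO (replicates 1, 2 and the unnumbered library), against 42.9, 94.98 and 51.4 CPM in sham LN. In PI it was at 0, 0.0702 and 0 CPM, against 0.258, 0.264 and 0.0359 CPM in sham PN, which is 3 counts in all against 14. Every MCAO and sham LN library was far above every PI and sham PN library, and the MCAO range overlapped that of sham LN. Emx1 stood at 15.1, 24.4 and 39.4 CPM in MCAO, against 26.9, 33.1 and 21.2 CPM in sham LN. It had 7 counts in all in PI and 4 in sham PN, with no library above 0.140 CPM. Fezf2 was at 10.2, 19.6 and 33.8 CPM in MCAO, against 15.02, 33.9 and 24.6 CPM in sham LN, with 11 counts in PI and 8 in sham PN. Thus Tbr1, Emx1 and Fezf2 shared 1 order of levels: sham LN and MCAO high and overlapping, PI and sham PN near 0 and overlapping.

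Lhx2 was at 12.1, 29.5 and 14.2 CPM in MCAO, below the 39.6, 45.5 and 36.3 CPM of sham LN without overlap. In PI it was at 3.16, 2.74 and 0.710 CPM, against 4.17, 2.34 and 1.94 CPM in sham PN. The libraries were thus ordered for Lhx2 as sham LN, then MCAO, then PI and sham PN, which overlapped. All MCAO libraries lay below sham LN for 18.7% of all tested genes. Cux2, the member with the least difference between the shams, was at 48.0, 164 and 91.5 CPM in MCAO and at 109, 160.1 and 94.6 CPM in sham LN. In PI Cux2 was at 44.6, 48.5 and 37.0 CPM, against 60.4, 70.9 and 77.0 CPM in sham PN. The PI libraries lay below the sham PN libraries without overlap, as they did for 18.7% of all tested genes. MCAO replicate 1 lay within the PI range of Cux2.

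Neurod6 was at 3.37, 24.3 and 4.69 CPM in MCAO, against 14.4, 41.0 and 28.2 CPM in sham LN. In PI Neurod6 was at 1.81, 2.01 and 5.46 CPM, against 6.71, 7.56 and 8.59 CPM in sham PN. So 2 of the 3 MCAO libraries were below every sham library of either kind, and all 3 PI libraries were below sham PN. The latter was the case for 18.7% of all tested genes. Neurod2 was at 31.7, 51.5 and 36.9 CPM in MCAO, against 39.3, 71.5 and 47.9 CPM in sham LN. In PI it was at 2.33, 5.29 and 34.7 CPM, against 14.2, 22.0 and 26.0 CPM in sham PN. PI replicates 1 and 2 were below sham PN and PI replicate 3 above it. Bhlhe22 was at 7.46, 36.7 and 12.1 CPM in MCAO, against 20.4, 29.3 and 20.9 CPM in sham LN. In PI it was at 7.91, 6.57 and 11.5 CPM, against 7.18, 7.90 and 5.17 CPM in sham PN. For Bhlhe22 the MCAO libraries spanned the whole range of sham LN and overlapped both PI and sham PN.

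**Figure D1:**
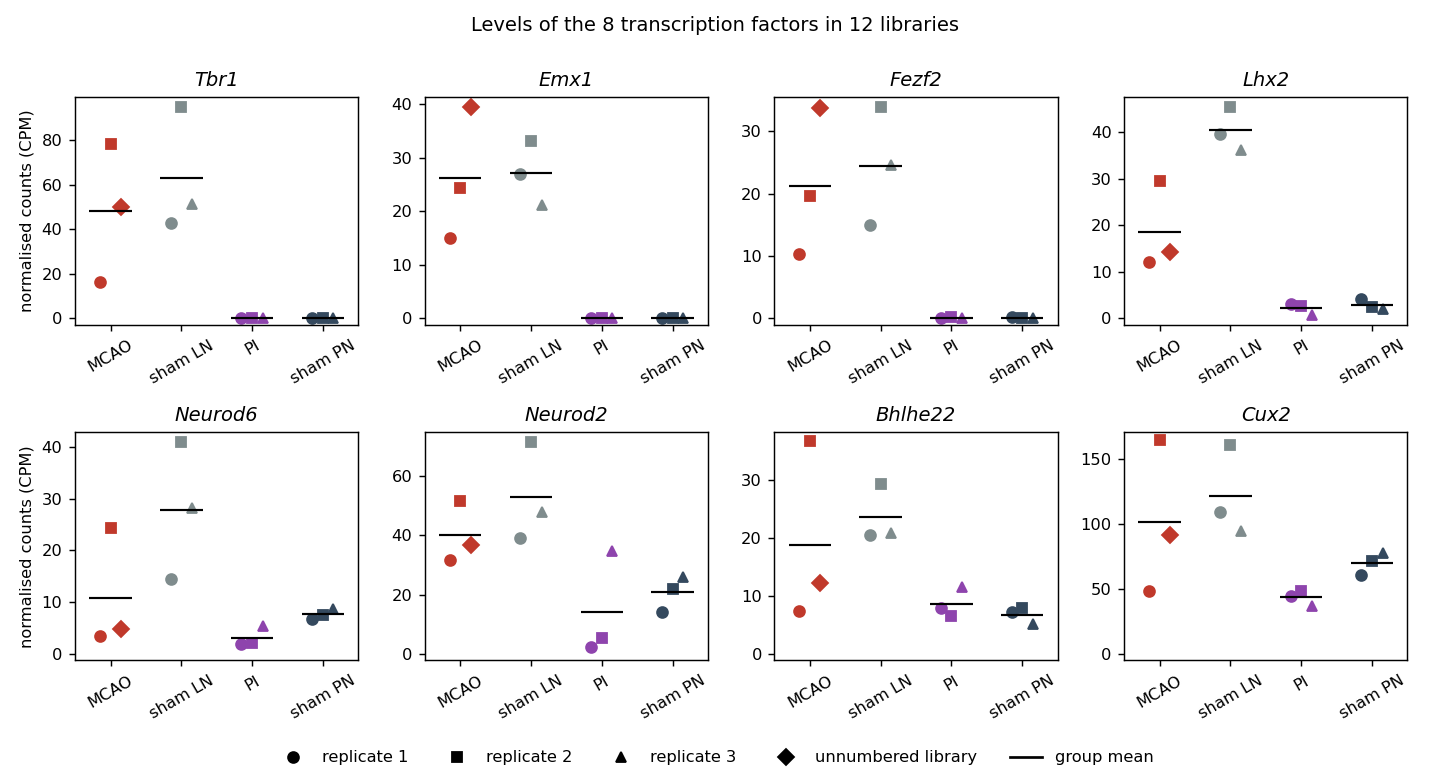
Normalised counts (CPM, linear axis, a scale of its own for each gene) of the 8 factors in the 12 libraries, with MCAO, sham LN, PI and sham PN from left to right, a symbol for each library and a line for the group mean. Tbr1, Emx1 and Fezf2 lie near 0 in all PI and sham PN libraries, Lhx2 is low there, and the other 4 are present in all groups.

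The libraries of the 2 strokes hold different tissue by their regional genes, which the labels do not say. The 23 brainstem transcription factors found in the table, a list of Hox, Phox2, Engrailed, Gata and other genes, summed to 10.8 to 17.3 CPM in MCAO, 9.37 to 12.8 CPM in sham LN, 143 to 182 CPM in PI and 185 to 259 CPM in sham PN. Hoxb3 had 0 counts in every MCAO and sham LN library. Striatal genes were also abundant on the telencephalic side: 11 striatal projection neuron genes, among them Ppp1r1b, the DARPP-32 phosphatase inhibitor, were all higher in sham LN than in sham PN. Sham LN replicate 2 stood apart within its group, with the lowest striatal sum, 3987 CPM against 7308 and 8343 CPM, and the highest sum of cortical projection neuron genes, 8565 CPM against 6266 and 6926 CPM; it also held the highest level of all 8 members in sham LN. In bulk RNA of such mixed tissue, fewer cells of a type and less RNA per cell cannot be told apart.

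Between the shams, sham LN was higher than sham PN for all 8 members without overlap of the libraries, as was the case for 21.7% of all tested genes. Of the 8, 5 passed an adjusted p of 0.05 in edgeR's quasi-likelihood test, all of them higher in sham LN. Over all genes 21.3% passed, 10.0% higher and 11.3% lower in sham LN. Tbr1, Emx1 and Fezf2 passed the filter on low counts through the MCAO and sham LN libraries alone. The members were also chosen with earlier results of these data known, so their share beside that of all genes is a description and no test. Emx1 had a log2 change of 8.91 ± 0.67 (SE), from a mean of 27.1 ± 5.95 CPM in sham LN (SD, n = 3) and 4 counts in all in sham PN, with an adjusted p of 1.21e-05 in edgeR. Tbr1 was higher by 8.40 ± 0.78 on the log2 scale and Fezf2 by 7.81 ± 0.87, with adjusted p-values of 3.80e-05 and 0.000114. Because sham PN held 4 counts of Emx1, 14 of Tbr1 and 8 of Fezf2, counting error leaves these folds loose. The ratio of scaled counts was 525 for Emx1, with a 95% interval of 205 to 1929.8, 337 for Tbr1, with 201 to 617, and 227 for Fezf2, with 115 to 525, and the intervals overlap, so the order of the 3 is not settled. Such intervals cover counting error only.

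Lhx2 averaged 40.5 ± 4.65 CPM in sham LN and 2.82 ± 1.19 CPM in sham PN (SD, n = 3 each), a log2 change of 3.85 ± 0.52 with an adjusted p of 0.00041 in edgeR. Bhlhe22 averaged 23.5 ± 4.98 CPM in sham LN and 6.75 ± 1.41 CPM in sham PN, a log2 change of 1.80 ± 0.48 with an edgeR adjusted p of 0.0208. The call on Bhlhe22 was lost when sham LN replicate 2 or any 1 of the 3 sham PN libraries was left out, with adjusted p-values of 0.0723, 0.0619, 0.053 and 0.0866. Neurod6, Neurod2 and Cux2 did not pass: their log2 changes were 1.87 ± 0.69, 1.35 ± 0.72 and 0.80 ± 0.35, with edgeR adjusted p-values of 0.0753, 0.214 and 0.129. All 3 did pass when the 6 sham libraries were fitted alone, where 39.9% of all genes passed, and DESeq2, which called 26.5% of all genes, called Neurod6.

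The lists around the members moved unevenly between the shams. Of 26 other pallial transcription factors tested, 9 were higher in sham LN, 2 lower and 15 did not pass, with a median log2 change of 0.85 against -0.11 over all genes and 2.86 over the 8 members. Among those that were higher, Bcl11b had a log2 change of 4.91 ± 0.44 and Mef2c of 4.81 ± 0.41. Among 17 subpallial factors, which pattern striatum and interneurons, 11 were higher and none lower, with a median of 2.98. Dlx5, Dlx6 and Lhx6, factors of GABAergic neurons, had log2 changes of 6.36 ± 1.06, 6.52 ± 1.07 and 5.94 ± 0.35. Lhx8, a factor of forebrain cholinergic neurons, had 358 counts in sham LN and 0 in sham PN, at least 102-fold higher, with sham PN set to the floor of 3 counts for the whole group. The brainstem factors went the other way, with 18 of 20 lower in sham LN and none higher. En2 had 0 counts in sham LN and 1054 in sham PN, at least 413-fold lower, and Hoxb3, Lmx1b and Hoxd3 were at least 218-fold, 182-fold and 137-fold lower.

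Close relatives of the members, the paralogs, were split. Of 10 tested, 3 were higher in sham LN, 5 lower and 2 did not pass. The LIM-homeodomain relatives of Lhx2 in this list were lower in sham LN, where Lhx2 was higher. Lhx1 had 0 counts in sham LN and 637 in sham PN, at least 249-fold lower. Lhx5 had 3 counts and 1130, and Lhx9 had a log2 change of -5.86 ± 0.90. Lhx6 and Lhx8, LIM-homeodomain genes of the subpallial list, were higher in sham LN, as given above. Bhlhe23, a relative of Bhlhe22, was higher by 2.67 ± 0.77. Among 19 protein partners and inhibitors of the members, 8 were higher, 1 lower and 10 did not pass. Lmo3 and Lmo4, LIM-only proteins that compete for Ldb cofactors, were higher by 1.99 ± 0.43 and 1.91 ± 0.22, Ldb2, which bridges LIM factors, by 1.36 ± 0.39, and Prdm8, the partner of Bhlhe22 in repression, by 1.37 ± 0.38. With 1 library left out in turn, the calls on Bhlhe23 and Prdm8 were each lost in 4 of 6 fits and that on Ldb2 in 5 of 6. Limma voom did not call Prdm8.

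Genes that work in mature cortical projection neurons were mostly on the side of the members, with 15 of 18 higher in sham LN, none lower and a median of 1.85. Nrgn, a calmodulin-binding protein of dendrites, Camk2a, a kinase of excitatory synapses, and Cplx3, a complexin of subplate neurons, had log2 changes of 4.94 ± 0.54, 4.80 ± 0.47 and 4.95 ± 0.95. Slc17a7, which loads glutamate into vesicles in cortex and cerebellum, had a log2 change of 1.77 and did not pass, with an edgeR adjusted p of 0.14. Pan-neuronal genes did not favour 1 side: 2 of 14 were higher, 4 lower and 8 did not pass. Oligodendrocyte genes were lower in sham LN for 10 of 11. The part of cell composition in the members' differences was not tested.

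**Figure D2:**
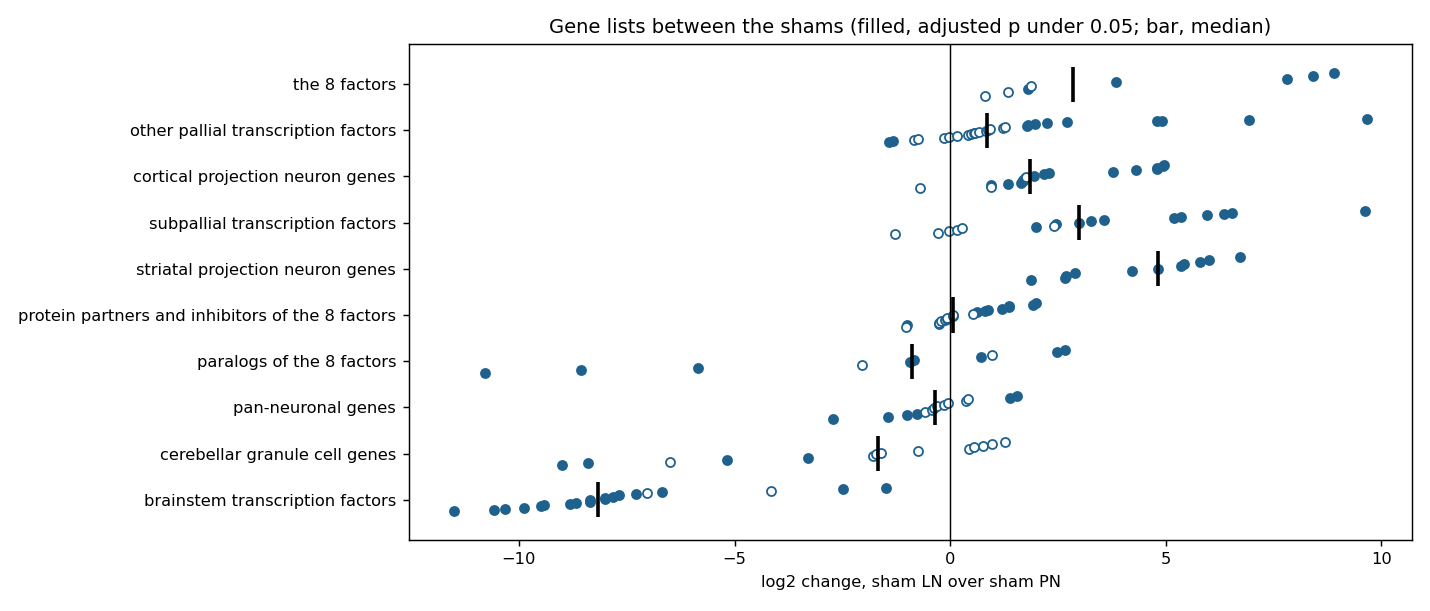
Log2 change, sham LN over sham PN, of each tested gene in 10 lists, with filled points for an adjusted p under 0.05, open points for the others and a bar for the list median. The points of the 8 factors all lie above 0 and those of the brainstem factors below it, where genes with a group at 0 counts stand at the fitted value, which is no measure of their size.

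After MCAO none of the 8 members passed the threshold in edgeR, against 18.6% of all genes, 12.5% higher and 6.07% lower. At an unadjusted p under 0.05 in edgeR there was 1 member, Lhx2, against 6055 of 17008 genes. Lhx2 averaged 18.6 ± 9.51 CPM in MCAO and 40.5 ± 4.65 CPM in sham LN (SD, n = 3 each), a log2 change of -1.12 ± 0.47 with an adjusted p of 0.11 in edgeR. Lhx2 was the only member whose MCAO libraries all lay below sham LN, a pattern seen in 18.7% of all genes. With limma voom, which called 7.06% of all genes lower, Lhx2 passed at -1.23 with an adjusted p of 0.0296. Neurod6 had the largest log2 change, -1.37 ± 0.68, from 10.8 ± 11.7 CPM in MCAO and 27.9 ± 13.3 CPM in sham LN, with an edgeR adjusted p of 0.172. The other 6 had log2 changes between -0.40 and -0.04, with adjusted p-values from 0.617 to 0.953, and the median over the members was -0.36 against -0.0018 over all genes.

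These averages hide a wide spread between the MCAO libraries. In replicate 1 all 8 members were below the mean of the 3 shams, by log2 differences between -2.90 for Neurod6 and -0.69 for Neurod2. In replicate 2, Neurod6 stood at -0.07, Neurod2 at 0.01, Emx1 at -0.13, Fezf2 at -0.24, Tbr1 at 0.40, Cux2 at 0.47 and Bhlhe22 at 0.66, and Lhx2, at -0.45, was the only one of the 8 below every sham library. Bhlhe22 and Cux2 were above every sham there. The unnumbered library was mixed: Neurod6, Lhx2, Bhlhe22, Neurod2 and Cux2 stood at -2.43, -1.497, -0.93, -0.47 and -0.37, below every sham. Emx1 stood at 0.57, above every sham, and Fezf2 and Tbr1 at 0.54 and -0.25, within the shams. Replicate 1 was thus low throughout, replicate 2 near the shams, and the unnumbered library low for some members and high for others.

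Without replicate 2, 4 members passed and all 4 fell after MCAO, in a fit where 18.8% of all genes were called lower. Neurod6 had a log2 change of -2.88 with an adjusted p of 0.00257 in edgeR. Lhx2 stood at -1.72 with 0.0171, Bhlhe22 at -1.36 with 0.00875 and Cux2 at -0.89 with 0.0327. Tbr1, Emx1, Fezf2 and Neurod2 did not pass there. Without sham LN replicate 2, Neurod6 stood at -0.98 with an edgeR adjusted p of 0.404 and Lhx2 at -1.03 with 0.229, and the other 6 lay between -0.14 and 0.13. Leaving out any other library gave no call on a member after MCAO, and DESeq2 gave none on all libraries.

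Markers of the injury and of the tissue differed between the same libraries. Summed neutrophil and monocyte genes were at 1099, 102 and 702 CPM in MCAO (replicates 1, 2 and the unnumbered library), against 6.73 to 8.04 CPM in sham LN, with all 10 tested genes higher. Reactive astrocyte genes were at 9586, 4368 and 5433 CPM in MCAO, against 478 to 611 CPM in sham LN, with all 11 higher. Replicate 2 held the lowest sum of both lists among the MCAO libraries, and it was still above every sham. Pan-neuronal genes summed to 4620.2, 7768 and 6903 CPM in MCAO and to 7269.9 to 9510.4 CPM in sham LN, and only replicate 2 lay within the sham range. Snap25, a protein of the synaptic release machinery, had a log2 change of -0.28 with an adjusted p of 0.384 in edgeR. Thalamic genes summed to 379, 211 and 363 CPM in MCAO, against 171 to 174 CPM in sham LN. Of 12 thalamic genes 2 were higher, 1 lower and 9 did not pass, with a median log2 change of 0.0087. Hippocampal genes summed to 503, 369 and 462 CPM in MCAO, against 247 to 371 CPM in sham LN. Of the 6 tested, 1 was higher, 1 lower and 4 did not pass. Within the hippocampal list, Wfs1 by itself averaged 327 ± 104 CPM in MCAO and 168 ± 23.1 CPM in sham LN (SD, n = 3 each). The part of immune cells, neuron content or dissection in the members' levels was not tested. When libraries were scaled to their pan-neuronal counts, the median over all genes moved by 0.37 on the log2 scale and the median of the members stood at -0.07, with Emx1, Fezf2 and Cux2 then at 0.28, 0.11 and 0.01.

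**Figure D3:**
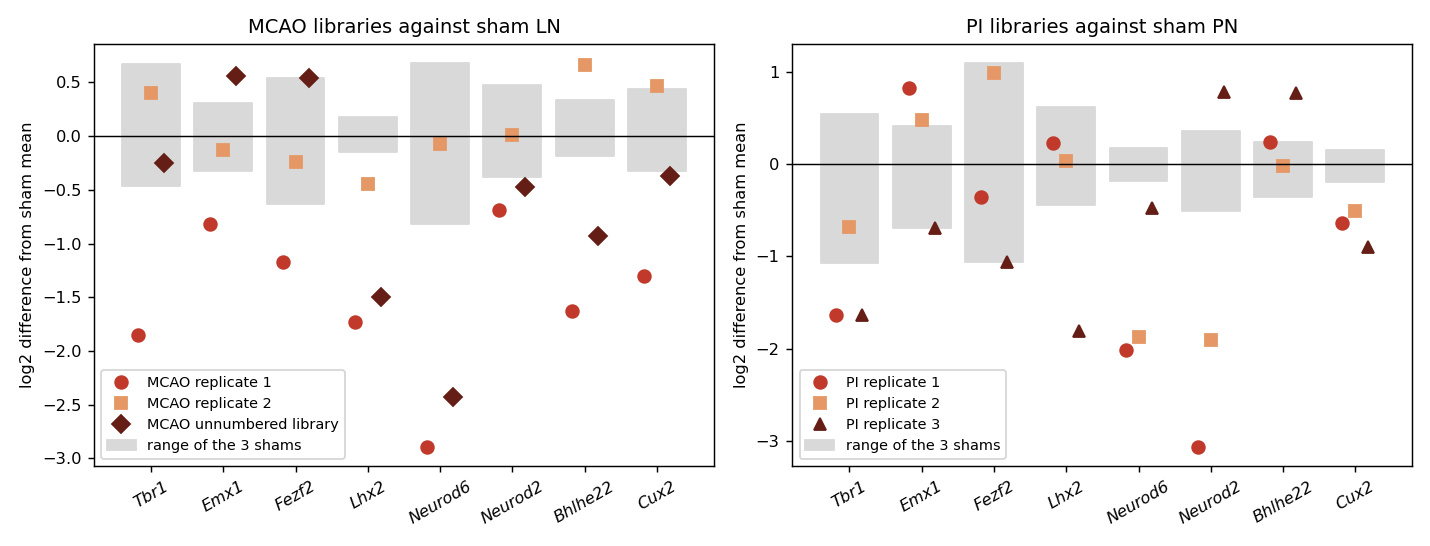
Log2 difference of each MCAO library (left) and PI library (right) from the mean of its 3 shams for the 8 factors, with a grey box for the range of the shams. MCAO replicate 1 lies below the sham range for all 8, replicate 2 below it for Lhx2 alone, and PI replicates 1 and 2 lie far below it for Neurod6 and Neurod2.

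Ratios between members are given as a description with no test, for the pairs with the widest range over the MCAO libraries, picked after their values were seen. The log2 ratio of Emx1 to Neurod6 was 2.14, 0.01 and 3.05 in MCAO (replicates 1, 2 and the unnumbered library), against 0.90, -0.31 and -0.41 in sham LN. That of Neurod6 to Fezf2 was -1.58, 0.31 and -2.83 in MCAO, against -0.06, 0.27 and 0.19 in sham LN. Neurod6 was low relative to both in replicate 1 and the unnumbered library, and within or next to the sham range in replicate 2. The ratio of Tbr1 to Cux2, the deep-layer and the upper-layer marker, differed less: it was -1.55, -1.06 and -0.87 in MCAO, against -1.35, -0.75 and -0.88 in sham LN. Ratios within a library do not depend on its scaling.

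The lists around the members are read against the 12.5% of all genes that rose and the 6.07% that fell after MCAO. Of 26 other pallial factors 4 fell and none rose, with a median of -0.58. Pou3f1, a POU factor, fell by 1.49 ± 0.35 on the log2 scale, Bcl11b, a factor of subcerebral and striatal neurons, by 1.16 ± 0.37, Zfpm2 by 0.93 ± 0.29 and Nfia by 0.57 ± 0.16. Of 19 partners and inhibitors 1 rose and 4 fell. Id1, an inhibitor of helix-loop-helix factors, rose by 1.34 ± 0.31, while its relative Id4 fell by 1.49 ± 0.31 and the corepressors Tle1 and Tle4 by 0.89 ± 0.17 and 0.66 ± 0.21. Of 10 paralogs, Olig1 and Olig2, which belong to oligodendrocytes, fell by 0.81 ± 0.20 and 0.69 ± 0.20, and 6 of 11 oligodendrocyte genes fell with them. Of 17 subpallial factors, Rarb and Foxp1, both of striatal neurons, fell by 1.30 ± 0.33 and 0.89 ± 0.18. Of 11 striatal projection neuron genes 5 fell, while 2 of the 11 had all MCAO libraries below sham LN, against 18.7% of all tested genes. The low striatal sum of sham LN replicate 2 lay within the MCAO range of 3049 to 4276 CPM.

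Cortical projection neuron genes gave 1 rise and 1 fall among 18, Ctgf at 1.01 ± 0.30, a secreted matrix protein, and Dkk3 at -0.85 ± 0.21, with a median of -0.77. Their sum was 2574, 6134 and 4370 CPM in MCAO, against 6266 to 8565 CPM in sham LN, with every MCAO library below. Slc17a7 was at 447, 1397 and 1013 CPM in MCAO, against 802, 1612 and 953 CPM in sham LN, a log2 change of -0.24 with an adjusted p of 0.852 in edgeR. Of the brainstem factors 4 rose, all from almost no RNA: En2 had 15 counts in MCAO and 0 in sham LN, at least 7.38-fold higher, and Gata3 18 and 2, a ratio of 13.3 with a 95% interval of 3.18 to 118. En1 was at 0.577, 0.0987 and 1.499 CPM in MCAO, against 0.105, 0 and 0.0382 CPM in sham LN, a log2 change of 3.64 ± 1.10, and Irx3 had a log2 change of 3.07 ± 0.70. Of the 18 listed genes named here that passed after MCAO, Foxp1, Id4 and Tle1 kept the call with each library left out in turn. Each lost it under another setting: Foxp1 and Tle1 when libraries were scaled to pan-neuronal counts, and Id4 when the compared libraries were fitted alone. With the replicate number as a block, Foxp1 and Id4 lost it as well.

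After pontine infarction none of the 8 members passed in edgeR, against 4.08% of all genes, 3.21% higher and 0.870% lower, and none passed in DESeq2 or limma voom. At an unadjusted p under 0.05 in edgeR there was no member either, against 3670 of 17008 genes. Neurod6 averaged 3.09 ± 2.05 CPM in PI and 7.62 ± 0.943 CPM in sham PN (SD, n = 3 each), a log2 change of -1.30 ± 0.70 with an adjusted p of 0.304. Cux2 averaged 43.4 ± 5.86 CPM in PI and 69.5 ± 8.42 CPM in sham PN, a log2 change of -0.68 ± 0.35 with an adjusted p of 0.289 in edgeR. These were the 2 members whose PI libraries all lay below sham PN, as they did for 18.7% of all genes. Tbr1, Emx1 and Fezf2 had too few counts to compare: 3 against 14 for Tbr1 gave a ratio of 0.183 with a 95% counting interval of 0.0337 to 0.654 and an edgeR adjusted p of 0.353, and Emx1 and Fezf2 had 0.801 and 0.965. Lhx2 and Bhlhe22 had log2 changes of -0.35 ± 0.50 and 0.36 ± 0.48, with edgeR adjusted p-values of 0.718 and 0.698.

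Neurod2 was split by PI replicate 3. Over all 3 libraries it averaged 14.1 ± 17.9 CPM in PI and 20.7 ± 6.003 CPM in sham PN, a log2 change of -0.56 ± 0.71 with an adjusted p of 0.684 in edgeR. Without replicate 3 it was -2.42 with an adjusted p of 0.0257, and Neurod2 fell in a fit where 0.378% of all genes did. Slc17a7 followed the same libraries, at 20.2, 52.4 and 323 CPM in PI, against 231, 317 and 441 CPM in sham PN, and without replicate 3 it too passed, at -3.18 with 0.0325.

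Granule cell genes of the cerebellum set PI replicate 3 apart. Gabra6, a GABA receptor subunit made by these cells, was at 0.0465, 0.0936 and 75.2 CPM in PI, against 2.88, 0.0378 and 0.180 CPM in sham PN. Cbln3, a cerebellin of the same cells, was at 0.0465, 0.304 and 73.7 CPM in PI, against 3.48, 1.89 and 1.98 CPM in sham PN. The paralogs Neurod1, a granule cell factor, and Eomes, a factor of unipolar brush cells, reached 70.8 and 6.20 CPM in PI replicate 3, against at most 3.91 and 0.327 CPM in the other PI and sham PN libraries. Cbln3, Neurod1 and Eomes were singled out after their values were seen. The 15 genes of the cerebellar list summed to 158, 248 and 1424 CPM in PI, against 315 to 353 CPM in sham PN. They also summed to 197.5 to 274 CPM in MCAO and 268 to 343 CPM in sham LN, where Gabra6 averaged 0.0816 and 0.258 CPM. Thus the library with the high Neurod2 was also the one with the cerebellar genes, and PI replicates 1 and 2 were low in both. Sham PN replicates 2 and 3 were also low in Gabra6, at 0.0378 and 0.180 CPM, but held Neurod2 at 22.0 and 26.0 CPM. Their Cbln3, at 1.89 and 1.98 CPM, was above that of PI replicates 1 and 2. The part of cerebellar tissue in the level of Neurod2 was not tested.

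**Figure D4:**
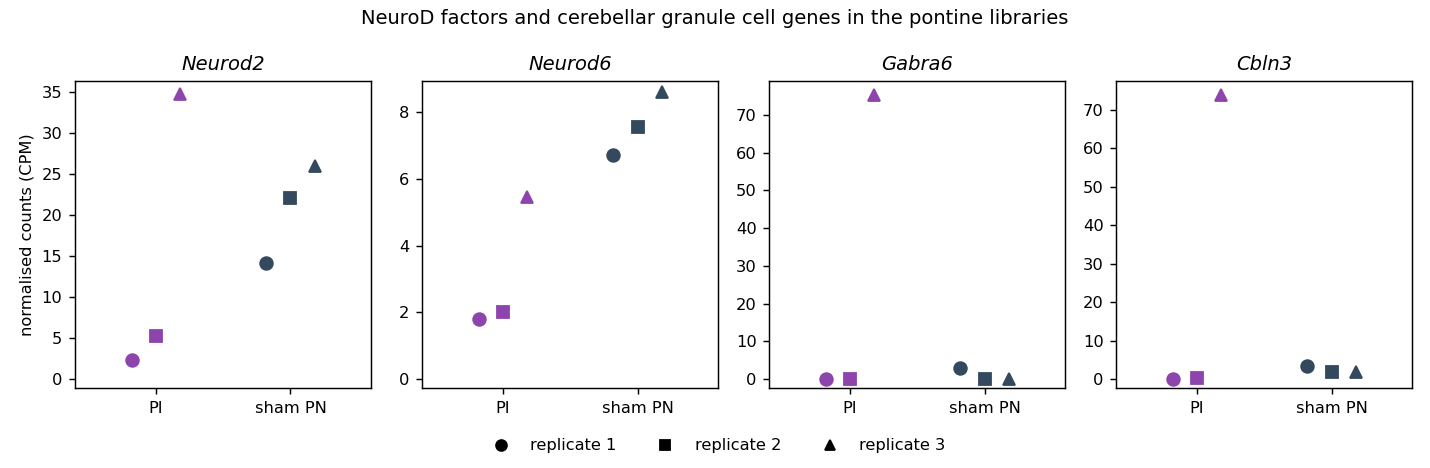
Normalised counts (CPM, linear axes) of Neurod2, Neurod6, Gabra6 and Cbln3 in the 3 PI and the 3 sham PN libraries, with a symbol for each replicate. PI replicate 3 stands alone at 75.2 CPM of Gabra6 and 73.7 CPM of Cbln3 and holds the highest Neurod2, 34.7 CPM, while its Neurod6, 5.46 CPM, stays below sham PN.

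Other cells also differed between the pontine libraries. Microglia and macrophage genes summed to 871, 900.4 and 2277 CPM in PI, against 337 to 394 CPM in sham PN, with 9 of 13 higher. Pan-neuronal genes summed to 6967, 7076 and 4735 CPM in PI and to 8771 to 9744 CPM in sham PN, with none of 14 past the threshold. Replicate 3 was the highest in the first and the lowest in the second, and Lhx2 was lowest in it too. Under scaling to pan-neuronal counts, which moved the median of all genes by 0.62, Lhx2 and Neurod2 stood at 0.13 and 0.34. Of the lists around the members, Olig2 fell among 10 paralogs by 0.80 ± 0.20, Bcl11a, a zinc finger relative of Bcl11b, among 26 pallial factors by 1.31 ± 0.31 and Hoxb3 among 20 brainstem factors by 2.26 ± 0.39. Ikzf1, a striatal factor also made by microglia and blood cells, rose among 17 subpallial factors by 1.56 ± 0.30. None of 19 partners and inhibitors passed, with Ssbp3, which stabilises Ldb complexes, at -0.22 ± 0.16 and Tle3 at 0.42 ± 0.28, and none of 18 cortical projection neuron genes did. None of the 4 calls was kept with each library left out in turn.

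**Figure D5:**
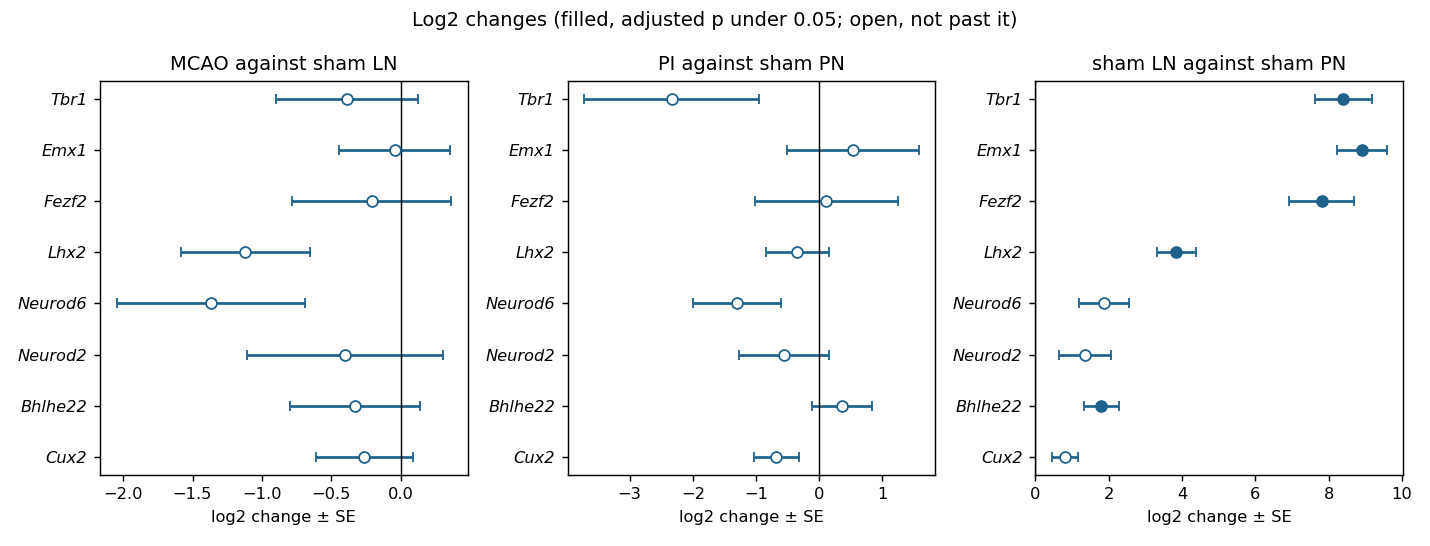
Log2 change with its SE of the 8 factors after MCAO against sham LN, after PI against sham PN and between sham LN and sham PN, each panel on an axis of its own, with filled points for an adjusted p under 0.05. Filled points appear in the last panel alone, for Tbr1, Emx1, Fezf2, Lhx2 and Bhlhe22.

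The responses to the 2 strokes were compared by their difference, the change after MCAO minus the change after PI. None of the 8 members passed in edgeR, and none of all genes did (0.00%), although 1826 genes had an unadjusted p under 0.05 and DESeq2 called 240 genes. The largest value was that of Tbr1, 1.95 ± 1.47 with an adjusted p of 0.673, which rests on the few counts of the pontine libraries. Among members with more RNA it was -0.77 ± 0.68 for Lhx2, -0.68 ± 0.67 for Bhlhe22 and 0.42 ± 0.49 for Cux2, with edgeR adjusted p-values of 0.729, 0.759 and 0.806. For Neurod6, below its shams in 2 MCAO libraries and in all 3 PI libraries, it was -0.07 ± 0.97. Without MCAO replicate 2, Bhlhe22 passed at -1.81 with an adjusted p of 0.0378 in edgeR, in a fit where 3.44% of all genes were called in that direction.

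The genes most like each member were found by the root mean square difference of centred log2 CPM over the 12 libraries. A value of 0 means the same profile, and the search ran over 14664 genes with the members left out of the results. The libraries share their groups and depth. Between members, Tbr1 and Fezf2 differed by 0.88, and Emx1 and Fezf2 by 0.69. For Tbr1 the nearest genes outside the members included Ddn, a protein of dendrites, at 0.92 and Kcnj4, a potassium channel, at 1.07. Ddn was nearest to Emx1, at 0.62, with Wnt10a at 0.95, and nearest to Fezf2, at 0.58, with Kcnj4 at 0.80. These 3 members, near 0 in the pontine libraries, thus had neighbours in common. Lhx2 was nearest to Kalrn, Ngef and Ackr2, at 0.40 to 0.44. Neurod6 had LOC690286 at 0.55, Rtn4r, the Nogo receptor, at 0.59 and Emid1 at 0.63. Neurod2 had LOC102553814 at 0.42, Gfy at 0.47 and Slc17a7 at 0.55. Bhlhe22 was nearest to Plch2, Etv5 and the glutamate receptor gene Gria1, all at 0.32 to 0.33, and Cux2 to Rgs12, Ryr2 and the synaptic scaffold gene Shank1, at 0.17 to 0.20.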

How the data were processed

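Total RNA extracted with Trizol, with an integrity number above 8 per the labels, was sequenced in 12 libraries. Per the submitters' processing notes, reads were processed with HISAT2 on the genome Rnor_6.0; its version, how genes were counted, on which annotation and with which strand setting is not given in the sources used here. The authors deposited unscaled gene counts, whole numbers for 37209 symbols, between 19805815 and 40400676 per library. On GRCr8, Emx1 overlaps LOC120102324, and Cux2 overlaps LOC120095978 and LOC134481298, whose reads could be shared.

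The analysis used edgeR 4.0.16 in R 4.3.3 (filterByExpr with a minimum count of 10 and a minimum total of 15, TMM, quasi-likelihood fit to all 12 libraries, common biological coefficient of variation 0.302); 17008 symbols were tested. Adjusted p-values are Benjamini-Hochberg values over all of them with a threshold of 0.05, all two-sided. The SE comes from the F statistic, as the size of the log2 change divided by its root. Log2 values of single libraries hold a prior count of 2. Folds against a group at 0 use a floor of 3 counts over the group. The scripts were tested on simulated data.

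The members and lists were chosen with earlier results of these data known. Named from each list were up to 4 genes with the largest log2 change past the threshold, or the 2 highest in mean CPM where none passed, and the fixed genes Snap25, Slc17a7, Ppp1r1b, Gabra6 and Hoxb3. Of listed genes, Zbtb18, Hoxa4, Hs3st4, Ccr2 and Slco1a4 were not found by symbol, and Cask, Syp and Timp1 are among those listed at 0 in every library. Gabra6 failed the filter. Some genes that the rule names are not reported here. Nearest genes had a mean of at least 1 CPM and were not members. Alternatives were DESeq2 size factors, scaling to pan-neuronal counts, no filter, 1 CPM in 3 libraries, DESeq2 1.42.0, limma voom (limma 3.58.1), a fit to the compared libraries alone, a block on the replicate number and leaving out each library.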

Additional observations from a re-analysis of the deposited data

How the results depend on the processing

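The absence of a call after MCAO, and of one on Neurod2 after PI, depended on single libraries, as given above, and in the pontine libraries counts of Tbr1, Emx1 and Fezf2 were too few to show a difference short of a very large one. The edgeR fit to all libraries called 3163 genes after MCAO (2131 higher, 1032 lower), 694 after PI (546 higher, 148 lower), 0 for the difference and 3625 between the shams (1702 higher, 1923 lower).

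Scaled to pan-neuronal counts, these were 2368 higher and 213 lower after MCAO, 1243 after PI (1235 higher, 8 lower) and 2341 between the shams (1700 higher, 641 lower). DESeq2 called 1738 genes after PI and 240 for the difference, limma voom 315 after PI, and no filter 1 for the difference. The compared libraries alone gave 1354 genes after MCAO and 6365 between the shams, where all 8 members passed; this fit was not possible for the difference. Limma voom called 1 member after MCAO.

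Leaving out each library in turn gave 1136 to 6170 genes after MCAO, with 6170 without MCAO replicate 2 and 1136 to 1544 without each of the other 5. It gave 6 to 965 after PI, with 182, 52 and 6 without sham PN replicates 1, 2 and 3, 431 without PI replicate 1 and 310 without PI replicate 3. It gave 0 to 970 for the difference, with 970 without MCAO replicate 2, and 2334 to 2662 between the shams. Members called ran over 0 to 4 after MCAO, 0 to 1 after PI, 0 to 1 for the difference and 4 to 5 between the shams.

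Changes of sign arose for values that had not passed. Scaled to pan-neuronal counts, log2 changes after MCAO were 0.010 for Cux2, 0.28 for Emx1, 0.11 for Fezf2, 0.057 for Slc17a7 and 0.065 for Snap25. After PI they were 0.13 for Lhx2, 0.34 for Neurod2, 0.22 for Nrgn, 0.59 for Ppp1r1b and 0.41 for Ssbp3, and the difference for Neurod2 was -0.38. Without a filter the difference for Neurod2 was -0.043, and with DESeq2 Fezf2 after PI was -0.059. With a library left out, values after MCAO ran from -1.02 to 0.032 for Tbr1, -0.46 to 0.15 for Emx1, -0.72 to 0.10 for Fezf2 and -0.71 to 0.12 for Slc17a7. After PI they ran from -0.030 to 1.03 for Emx1, -2.09 to 1.503 for Fezf2, -0.66 to 0.068 for Lhx2, -0.56 to 0.16 for Nrgn and -0.47 to 0.18 for Ppp1r1b. Differences ran from -0.31 to 0.67 for Cux2, -1.71 to 1.88 for Fezf2, -0.34 to 2.02 for Neurod2 and -1.68 to 0.62 for Neurod6. The cause was not tested.

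The replicate numbers do not pair the libraries by the labels, and same-numbered libraries deviated together with correlations of 0.05, 0.15 and 0.15 for PI with sham PN, 0.10 and 0.04 for MCAO with sham LN, and 0.15, 0.08 and 0.04 for sham LN with sham PN. With the number as a block, and the unnumbered library left out, 1389 genes passed after MCAO, 818 after PI, 0 for the difference and 3843 between the shams, with 6 members in the last and Neurod6 added at 1.72 with an edgeR adjusted p of 0.042. Under the block Fezf2 after PI was -0.075 and the difference for Neurod6 0.38. Between PI and sham PN and between the shams each library correlated best with its own number, a hint from the data and not the design.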
